A study of Mus musculus with 4 samples.

Results

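The glucocorticoid responsive genes described here are the glucocorticoid receptor gene Nr3c1, the hormone-activating enzyme gene Hsd11b1 and 8 genes known as targets of the receptor, namely Fkbp5, Tsc22d3, Dusp1, Zbtb16, Sgk1, Map3k6, Mt1 and Mt2. The 10 genes were given by their known roles, with earlier results of these data known. Every probe set annotated to 1 of them alone was taken. Of the 10 genes 9 had such a probe set, 19 probe sets in all out of 28898 on the array that carry a single gene. Mt2 had none, so its expression was not analysed here. All 9 passed the brightness limit used for testing, a mean over the arrays of at least 4.94 (log2), so they are 9 of the 11078 genes tested out of 17097 with a single-gene probe set.

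The arrays measured RNA of the whole inguinal mammary gland from mice at postnatal day 10. One group was Mt1-mmp(+/+), the wild type, and the other Mt1-mmp(-/-), a global knockout of the membrane-bound collagenase that the array lists as Mmp14, with 2 biological replicates of each genotype. Both genotypes came as littermates from an outbred Swiss Black stock. Because the gene was missing in every cell of the body and the gland was not separated into cells, a difference can belong to any cell type of the gland or of tissue taken with it. The labels state neither the sex of the pups nor the hour of tissue collection.

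Glucocorticoids are steroid hormones of the adrenal cortex that enter cells and bind the receptor encoded by Nr3c1. The unbound receptor sits in the cytoplasm with heat shock proteins. After binding it moves to the nucleus and switches genes on or off, often through a palindromic DNA element. In tissue, the enzyme encoded by Hsd11b1 regenerates active hormone from its inactive form, and in the mammary gland glucocorticoids act together with prolactin and insulin in the differentiation of milk-producing cells. In fat, they act on the formation of adipocytes and on the storage and release of lipid.

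The members did not move one way. In the knockout, Hsd11b1, Mt1, Zbtb16, Map3k6 and Sgk1 were higher in both arrays, and their group means differed by 0.50 to 1.33 (log2). The mean of the receptor gene Nr3c1 was higher by 0.10. The classical targets Tsc22d3 and Fkbp5 were lower in both arrays, with group means lower by 0.33 and 0.37. Dusp1 overlapped between the genotypes. With limma and Benjamini-Hochberg adjustment over all genes, 0 of the 9 passed 0.05, as did 0% of the 11078 genes tested, and the smallest adjusted p among the members was 0.145, for Hsd11b1. At an unadjusted p under 0.05 limma gave 4 members higher and 1 lower, where 21.8% of all genes reached that level, 9.69% higher and 12.1% lower. The groups did not overlap for 8 of the 9, 6 higher and 2 lower, where 58.8% of all genes showed no overlap. Only Hsd11b1 differed by at least 2-fold, as did 4.29% of all genes. The median difference of the members was 0.50 and that of all genes tested -0.02. Their median absolute differences were 0.50 and 0.21. The members were chosen with earlier results of these data known, so these shares describe them and test nothing.

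**Figure D1:**
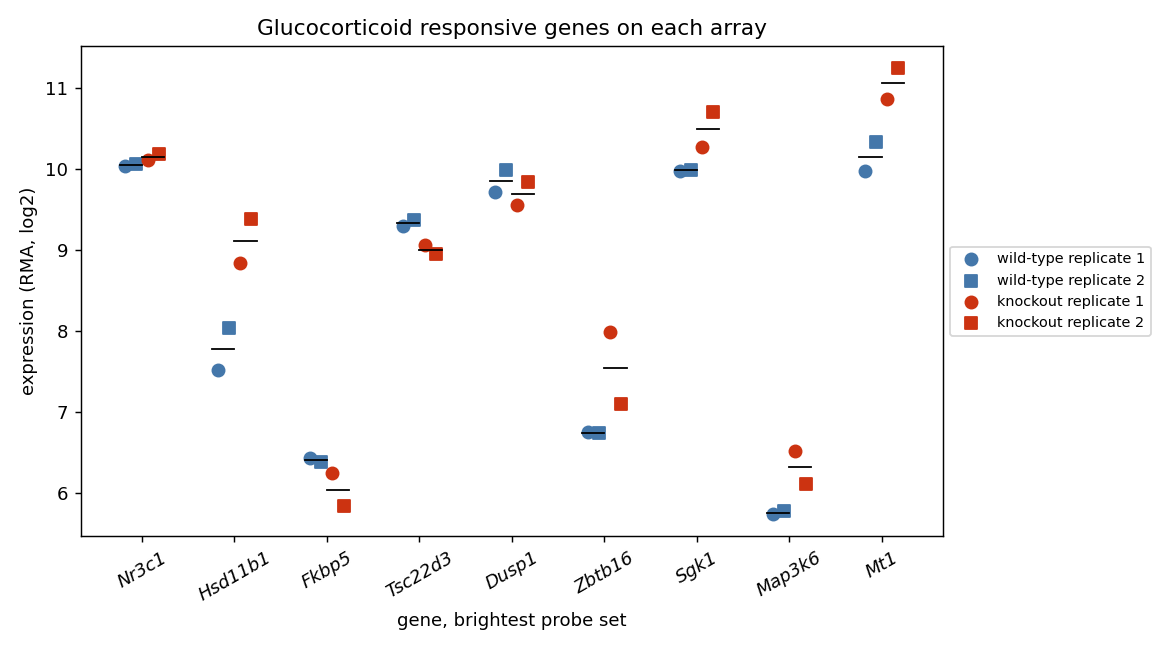
Expression (RMA, log2) of the brightest probe set of each of the 9 measured genes on each of the 4 arrays, with wild type in blue, knockout in red, circles for replicate 1, squares for replicate 2 and bars for group means. Hsd11b1, Mt1, Sgk1, Zbtb16 and Map3k6 lie higher in both knockout arrays, and Tsc22d3 and Fkbp5 lie lower. The knockout pair is farther apart than the wild-type pair for each gene. The median gap of all tested genes was also wider in the knockout pair (0.21 against 0.08).

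The arrays had near-equal medians, from 4.92 to 4.98, and Mmp14 itself was at 8.92 and 8.73 in the wild-type arrays, with 5.83 and 5.68 in those of the knockout. The arrays differed in tissue makeup within each genotype. Skeletal muscle and skin markers differed more within the knockout pair. Luminal epithelial markers differed more within the wild-type pair (median gap 0.89 against 0.39). Skeletal muscle markers, 17 tested with Acta1 and Tnnc2 the brightest, had summed levels (log2 of the sum) of 9.02 and 11.67 in wild type and of 8.97 and 15.72 in the knockout replicates. Epidermis and hair follicle markers, 13 tested with Tchh and Sbsn the brightest, had 10.24 and 11.90 in wild type against 13.84 and 9.65. Knockout replicate 2 thus held far more muscle signal, and knockout replicate 1 more skin signal, than any other array. Summed white adipocyte and fibroblast markers were closer between arrays. White adipocyte markers summed to 15.48 and 15.47 against 15.41 and 15.20, and fibroblast markers to 14.91 and 14.80 against 14.80 and 14.55. These sums rest on the brightest genes, and single markers differed more, such as the leptin gene Lep at 10.72 and 10.72 against 6.95 and 4.48, named after its values were seen. The labelled tissue was present by its markers in every array, with the luminal keratin gene Krt8 at 8.73 and 7.38 in wild type and at 8.64 and 8.93 in the knockout, and the fat hormone gene Adipoq at 13.10 and 13.12 against 13.26 and 13.04. In whole tissue, a change in the number of cells of a type and a change in RNA per cell cannot be told apart. For each of the 9 members the knockout arrays differed more from each other (median 0.40) than the wild-type arrays did (median 0.05). The gaps were close for Hsd11b1 (0.55 against 0.52), Mt1 (0.37 against 0.36) and Dusp1 (0.29 against 0.27). The median gap of all tested genes was also wider between the knockout arrays (0.21) than between the wild-type arrays (0.08). Each knockout array is therefore given on its own below.

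The receptor gene came first in the pathway and differed least. The brightest Nr3c1 probe set was at 10.04 and 10.06 in wild type and at 10.11 and 10.18 in the knockout. Both knockout arrays lay just above both wild-type arrays. The difference was 0.10 ± 0.09 (SE, n = 2 per group; limma adjusted p = 0.565), with a 95% interval from -0.16 to 0.36, so a change of up to about 0.36 is not excluded by the spread. A second bright Nr3c1 probe set was at 9.06 and 9.12 against 9.19 and 9.22, a difference of 0.12 in the same direction. The other 3 Nr3c1 probe sets had means between 4.11 and 4.26, under the brightness limit, and differed by 0.00, 0.13 and -0.09. Nr3c1 was thus present at a similar level in all 4 glands by both probe sets that measured it well.

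Hsd11b1 showed the largest difference among the members. Its enzyme, in the endoplasmic reticulum, turns inactive 11-dehydrocorticosterone back into corticosterone, the main glucocorticoid of mice, and is known to be abundant in fat and in fibroblasts. The single Hsd11b1 probe set was at 7.52 and 8.04 in wild type and at 8.83 and 9.39 in the knockout. The groups did not overlap, although the wild-type arrays were themselves 0.52 apart, the widest wild-type gap of any member. The knockout was 2.52-fold higher, a log2 difference of 1.33 ± 0.28 (SE, n = 2 per group; limma adjusted p = 0.145), with a 95% interval from 0.54 to 2.13. Against the wild-type mean, knockout replicate 1 stood at 1.05 and knockout replicate 2 at 1.61. Skin markers were high in the former and muscle markers in the latter, and their part in the result was not tested. The enzyme genes beside it were read as well. Hsd11b2, which inactivates corticosterone, was at 5.98 and 5.78 in wild type and at 5.63 and 5.54 in the knockout, a difference of -0.30 ± 0.12 (limma adjusted p = 0.261) close to the brightness limit. H6pd, which supplies the cofactor for the Hsd11b1 reaction, was named after its values were seen. It was at 8.40 and 8.58 against 8.59 and 8.70 (0.16 ± 0.12; limma adjusted p = 0.475). Knockout replicate 1 lay only just above wild-type replicate 2 for this gene.

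Tsc22d3 and Fkbp5, which often serve as readouts of receptor activity, were both lower in both knockout arrays. Tsc22d3 encodes the leucine zipper protein GILZ, which restrains inflammatory transcription. Its brightest probe set was at 9.30 and 9.37 in wild type and at 9.06 and 8.94 in the knockout. Both knockout arrays were low, and the difference was -0.33 ± 0.10 (SE, n = 2 per group; limma adjusted p = 0.194; 95% interval from -0.61 to -0.05). The 2 further Tsc22d3 probe sets gave the same direction without overlap, with 7.72 and 7.76 against 7.47 and 6.83 (difference -0.59) and 5.70 and 5.66 against 5.38 and 5.29 (difference -0.35). All 3 can match more than 1 transcript by the suffix of their names. The middle one was lowest in knockout replicate 2, at -0.91 from the wild-type mean against -0.27 in knockout replicate 1.

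Fkbp5 encodes a co-chaperone that binds the receptor complex and lowers its affinity for hormone, so that its induction is a negative feedback. Its brightest probe set was at 6.44 and 6.39 in wild type and at 6.25 and 5.84 in the knockout. Knockout replicate 2 was the low array, at -0.57 from the wild-type mean, while knockout replicate 1 stood at -0.17. The difference was -0.37 ± 0.17 (limma adjusted p = 0.297), and its 95% interval, from -0.84 to 0.10, included 0. The other Fkbp5 probe sets did not repeat the difference. One near the brightness limit was at 5.21 and 4.91 against 4.91 and 5.16 (difference -0.02), and one under the limit differed by 0.07. Muscle markers stood highest in the array where Fkbp5 was lowest, and their part in this was not tested.

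Dusp1 encodes a phosphatase that switches off MAP kinases and is induced both by glucocorticoids and within minutes of handling or stress. It was at 9.72 and 9.99 in wild type and at 9.55 and 9.84 in the knockout. The groups overlapped, and the difference of -0.16 ± 0.17 (SE, n = 2 per group; limma adjusted p = 0.606; 95% interval from -0.63 to 0.31) was smaller than the gap within either genotype. Of the 8 other MAP kinase phosphatase genes tested, 0 passed and 6 overlapped between groups, where 58.8% of all genes showed no overlap. Dusp9 (-0.09) and Dusp8 (0.05) did not overlap, while the dimmer Dusp8 probe sets were lower without overlap (-0.11 and -0.38). The median of these 8 genes was -0.0007.

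Zbtb16 encodes PLZF, a zinc finger repressor that is strongly induced by glucocorticoids in several cell types and marks some progenitor and innate-like lymphoid cells. The brighter Zbtb16 probe set was at 6.76 and 6.74 in wild type and at 7.99 and 7.10 in the knockout. Both knockout arrays were above a very tight wild-type pair, but they were 0.89 apart from each other, the widest knockout gap of any member. The difference was 0.80 ± 0.33 (SE, n = 2 per group; limma adjusted p = 0.272; 95% interval from -0.12 to 1.72). Knockout replicate 1, the array with the highest summed skin markers, stood at 1.24 and knockout replicate 2 at 0.35 above the wild-type mean. The part of skin in this was not tested. The other Zbtb16 probe set lay at the brightness limit, with 4.94 and 5.03 against 4.96 and 4.97, and showed no such difference (-0.02).

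Map3k6, a kinase gene of the stress-activated MAP kinase cascade, had a pattern like that of Zbtb16. It was at 5.75 and 5.78 in wild type and at 6.53 and 6.12 in the knockout. Knockout replicate 1 was again the higher array. The difference was 0.56 ± 0.17 (SE, n = 2 per group; limma adjusted p = 0.196; 95% interval from 0.08 to 1.03). Map3k6 was among the dimmer probe sets, near the range where RMA compresses differences, and its probe set can match more than 1 transcript.

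Sgk1 encodes a serum and glucocorticoid regulated kinase that acts on ion channels and on FoxO factors. It was at 9.98 and 9.98 in wild type and at 10.26 and 10.70 in the knockout. The wild-type arrays were 0.01 apart and both knockout arrays lay above them, with knockout replicate 2 the highest. The knockout was 1.42-fold higher, a difference of 0.50 ± 0.18 (SE, n = 2 per group; limma adjusted p = 0.229; 95% interval from 0.00 to 1.00).

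Sgk1 and Tsc22d3 are both known as direct targets of the receptor, so the stretches before their RefSeq start sites were searched for the letters of its element. The palindrome, AGAACA and TGTTCT with any 3 bases between, and the single site TGTTCT were searched on both strands in the 250 bases before each start in the RefSeq table of assembly GRCm38.p6. The table gave 15 such windows for 8 of the members, Mt2 included, Zbtb16 having none and Nr3c1 not being searched. The palindrome occurred in 3 of 32851 windows of all genes (0.00913%), and 1 of these 3 is a Sgk1 window. It is 1 of 6 Sgk1 windows, at chr10:21993640-21993889 on the plus strand, inside the Sgk1 gene and before one of its inner start sites. Capitals mark the palindrome, from 189 to 175 bases before the start, and a further single site at 242 to 237.
Sgk1: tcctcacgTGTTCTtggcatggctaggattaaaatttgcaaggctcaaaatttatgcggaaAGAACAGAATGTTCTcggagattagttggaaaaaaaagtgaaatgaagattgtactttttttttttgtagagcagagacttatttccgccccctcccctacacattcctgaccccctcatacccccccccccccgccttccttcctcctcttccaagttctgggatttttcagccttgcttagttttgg
The single site occurred in 16.1% of all windows. Of the 15 member windows 4 held it, 3 of Sgk1 and 1 of the 3 windows of Tsc22d3, at chrX:140600523-140600772 on the minus strand, with capitals at 185 to 180 bases before the start.
Tsc22d3: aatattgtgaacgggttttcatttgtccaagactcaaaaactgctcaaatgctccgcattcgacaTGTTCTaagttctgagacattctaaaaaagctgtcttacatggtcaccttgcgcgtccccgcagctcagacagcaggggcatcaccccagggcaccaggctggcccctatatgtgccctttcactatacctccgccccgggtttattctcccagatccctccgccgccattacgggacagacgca
The palindrome holds 2 of the 3 single sites counted in the Sgk1 window. A match describes letters only, and the elements of these genes may lie outside the windows searched. A part of these letters in the differences between genotypes was not tested.

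Mt1 encodes a metallothionein, a small cysteine-rich protein that binds zinc and copper, and is induced by metals and by glucocorticoids. The brighter Mt1 probe set was at 9.97 and 10.33 in wild type and at 10.86 and 11.24 in the knockout. The groups did not overlap, and the knockout was 1.87-fold higher, a difference of 0.90 ± 0.20 (SE, n = 2 per group; limma adjusted p = 0.151; 95% interval from 0.33 to 1.48). Knockout replicates 1 and 2 stood at 0.72 and 1.09 above the wild-type mean. The name of this probe set marks it as able to match several transcripts, and Mt2, whose end lies 5316 bases from the start of Mt1 on chromosome 8 of GRCm38.p6, has a closely related sequence, so the signal cannot be assigned to Mt1 alone with certainty. The dimmer Mt1 probe set, at 5.48 and 5.40 against 5.35 and 5.49, gave -0.02. Without probe sets of the first kind, the Mt1 difference is therefore -0.02.

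Other genes of the response to metals and oxidative stress did not share one direction. Of 10 tested, 0 passed, 3 were higher and 1 lower without overlap, beside 58.8% of all genes in either direction, and their median was 0.07. The heme oxygenase gene Hmox1 was at 6.58 and 6.44 in wild type and at 5.57 and 5.71 in the knockout, a difference of -0.87 ± 0.11 (limma adjusted p = 0.105). The zinc importer gene Slc39a10 (0.34 ± 0.11) and the ferritin light chain gene Ftl1 (0.21 ± 0.09) were higher in both knockout arrays. Slc30a1, the zinc exporter gene that metals induce through the same factor as Mt1, named after its values were seen, was at 8.31 and 8.59 against 9.07 and 8.59 and overlapped.

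**Figure D2:**
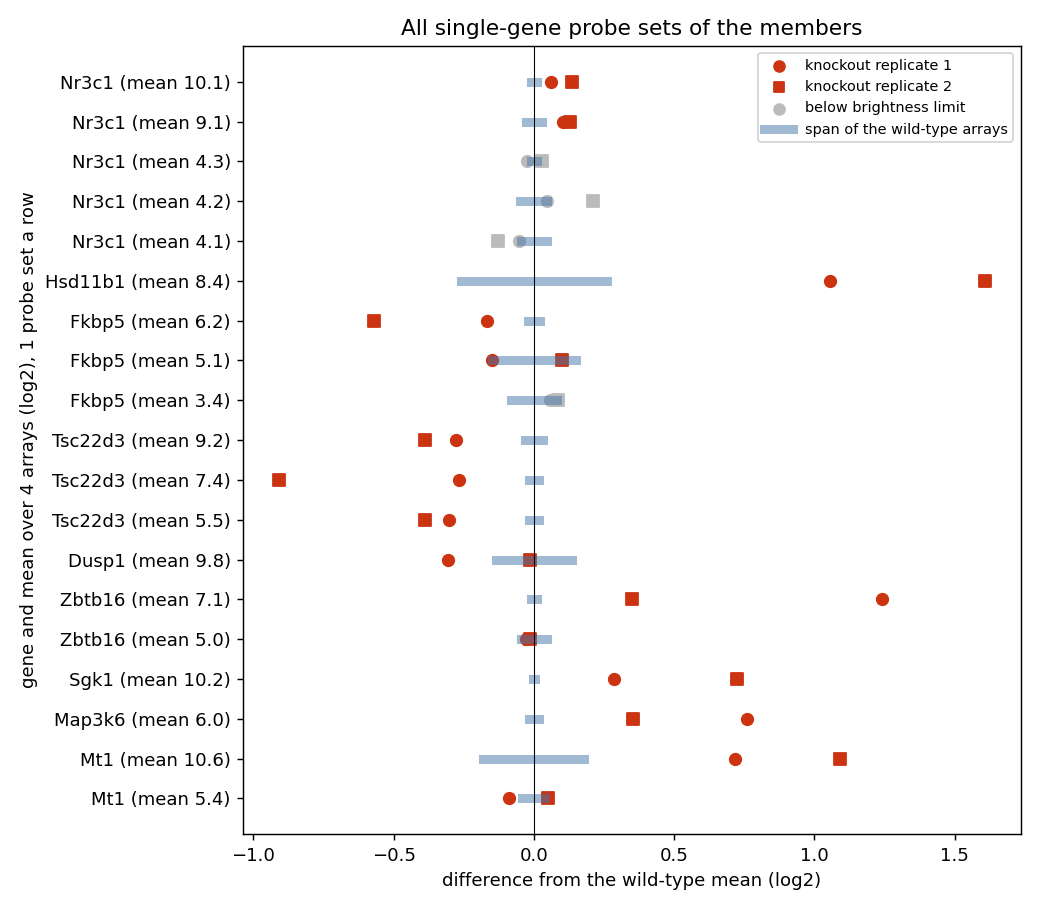
Difference of each knockout array from the wild-type mean (log2, horizontal axis) for all 19 single-gene probe sets of the 9 genes, 1 per row with its mean level, where circles are knockout replicate 1, squares knockout replicate 2, blue bars the span of the wild-type arrays and grey marks probe sets under the brightness limit of 4.94. The 3 Tsc22d3 probe sets lie left of 0 in both arrays, while the dim probe sets of Fkbp5, Zbtb16 and Mt1 lie near 0 where the bright ones do not.

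Set beside each other, the knockout arrays placed all 9 members on the same side of the wild-type mean, where 69.9% of all tested genes did so. The difference between genotypes was larger than the gap within either genotype for 6 of the 9, where 42.8% of all genes showed this. As the members were chosen with earlier results known, these shares and those below are descriptive only. The members nevertheless divided by array. Zbtb16, Map3k6 and Dusp1 were farther from wild type in knockout replicate 1. Hsd11b1, Mt1, Sgk1, Fkbp5, Tsc22d3 and Nr3c1 were farther in knockout replicate 2. When knockout replicate 1 was left out, limma called 7 of the 9 members, all but Nr3c1 and Dusp1, at an adjusted p under 0.05, against 37.7% of all genes in that fit. When knockout replicate 2 was left out it called 2, Zbtb16 and Map3k6, against 11.7% of all genes. Both fits take the spread from the wild-type pair alone, since 1 knockout array has none.

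**Figure D3:**
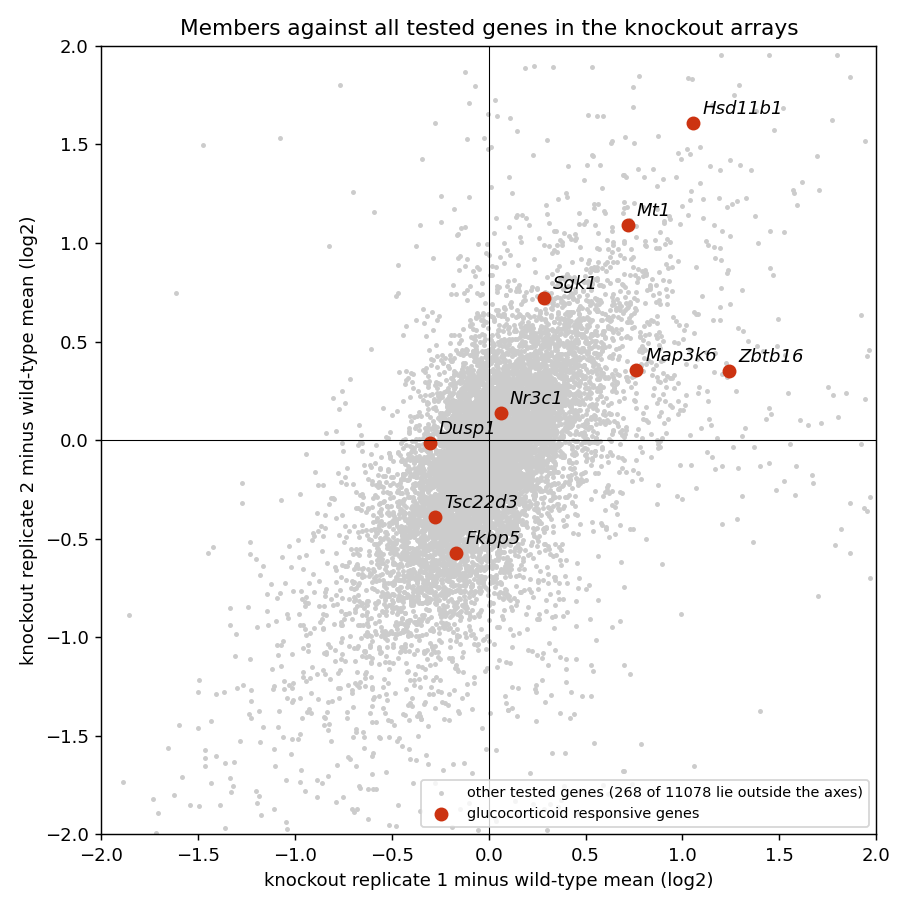
Difference from the wild-type mean (log2) in knockout replicate 1 (horizontal axis) and knockout replicate 2 (vertical axis) for the 9 members in red and the other tested genes in grey, of which 268 lie outside the axes. All members lie at the upper right or the lower left of the origin, with Hsd11b1 at 1.05 and 1.61 and Zbtb16 at 1.24 and 0.35.

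Genes that carry the receptor and its cofactors were split. Of 15 tested genes of receptor machinery and hormone handling 0 passed, 5 were higher and 7 lower without overlap, beside 26.3% and 32.5% of all genes, and the median was -0.05. Nfia, a transcription factor gene whose product often binds beside the receptor, was at 9.80 and 9.84 in wild type and at 10.27 and 10.24 in the knockout (0.43 ± 0.09, SE, n = 2 per group; limma adjusted p = 0.143), and a further bright probe set differed by 0.77. The co-chaperone gene Stip1 was lower (-0.37 ± 0.13). Hsp90aa1, which encodes the inducible form of the chaperone that holds the receptor ready for hormone and was named after its values were seen, was at 8.37 and 8.29 against 8.15 and 6.69. Knockout replicate 2 alone was far down for this gene.

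Among 38 other tested targets known to be induced by glucocorticoids, more were higher than lower. None passed (0 of 38), 17 were higher and 7 lower without overlap, beside 26.3% and 32.5% of all genes, and the median was 0.25. Agt, the angiotensinogen gene, was at 6.32 and 6.47 in wild type and at 7.64 and 7.82 in the knockout (1.33 ± 0.12, SE, n = 2 per group; limma adjusted p = 0.101). Fbxo32, the ubiquitin ligase gene of muscle wasting also known as atrogin-1, was at 5.68 and 5.46 against 6.85 and 6.78 (1.25 ± 0.12; limma adjusted p = 0.101), and its 2 dimmer probe sets differed by 0.80 and 0.91. Muscle markers stood highest in knockout replicate 2, and their part in the Fbxo32 values was not tested. Txnip, which restrains thioredoxin and glucose uptake, was at 11.09 and 11.23 against 11.97 and 12.01 (0.83 ± 0.10), with 0.90 in its other probe set. The antioxidant enzyme gene Gpx3 had the widest difference of the list and was named after its values were seen. It was at 8.11 and 9.03 in wild type and at 10.31 and 11.73 in the knockout (2.45 ± 0.61), with large gaps within both genotypes. On the lower side, and also named afterwards, the repressor gene Bcl6 was at 8.38 and 8.53 against 7.83 and 7.51 (-0.78 ± 0.15). The Krüppel-like factor gene Klf9, another common readout of the receptor, named on the same terms, was at 10.50 and 10.61 against 10.63 and 10.93 (0.23 ± 0.14), and a second bright probe set was at 10.44 and 10.47 against 10.42 and 10.59, with overlap. Per1 and Cry2 of this list are also clock genes, and Mertk and Cd163 are also macrophage markers.

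Of 22 listed inflammatory genes that glucocorticoids are known to repress, 12 lay under the brightness limit and 10 were tested. Of these 0 passed, 6 were lower and 3 higher without overlap, beside 32.5% and 26.3% of all genes, and the median was -0.20. The 3 named by their p were all chemokine genes. Ccl5 was at 5.92 and 6.97 in wild type and at 5.26 and 4.91 in the knockout (-1.36 ± 0.41, SE, n = 2 per group), Ccl2 at 6.49 and 6.99 against 5.87 and 5.81 (-0.90 ± 0.20) and Ccl7 at 5.29 and 5.94 against 4.97 and 4.68 (-0.79 ± 0.27). For all 3, wild-type replicate 2 was the highest array. Macrophages are a known source of these chemokines, and their markers had summed levels of 12.39 and 12.70 in wild type and of 12.12 and 12.33 in the knockout, with Mrc1 and Lyz2 the brightest, and their part in the chemokine values was not tested.

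Immediate early genes, which like Dusp1 can respond within minutes to handling, were mixed. Of 16 tested 0 passed, 6 were higher and 3 lower without overlap, near the 58.8% of all genes without overlap, with a median of 0.25. Gadd45b was at 5.72 and 5.56 in wild type and at 6.59 and 6.39 in the knockout (0.85 ± 0.13, SE, n = 2 per group; limma adjusted p = 0.113) and Klf2 at 8.64 and 8.62 against 8.99 and 9.14 (0.43 ± 0.10). Klf6 was lower, at 9.42 and 9.57 against 9.14 and 8.75 (-0.55 ± 0.17), with -0.61 and -0.53 in its other probe sets.

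Glucocorticoids follow a daily rhythm and act on clock genes, so the clock list was read beside the members. Of 13 clock genes tested 0 passed, 6 were higher and 4 lower without overlap, beside 26.3% and 32.5% of all genes, and the median was 0.49 (-0.16 in knockout replicate 1 and 0.59 in knockout replicate 2). Tef was at 8.51 and 8.53 in wild type and at 9.23 and 9.86 in the knockout (1.02 ± 0.24, SE, n = 2 per group; limma adjusted p = 0.154), Per3 at 7.80 and 7.92 against 8.55 and 9.21 (1.02 ± 0.25) and Cry2 at 7.80 and 7.90 against 8.24 and 8.44 (0.49 ± 0.12). A further probe set of Tef, under the brightness limit, differed by -0.11, and 2 others of Per3 above it by 0.99 and 0.50. Per1, a clock gene that the receptor also induces and that stands in both lists, was at 7.06 and 7.37 against 7.68 and 8.31 (0.78 ± 0.27). Arntl, the positive arm of the clock, named with Per1 after its values were seen, went the other way, at 6.16 and 6.04 against 5.79 and 4.65, while a dimmer probe set of it differed by 0.01. For each of these 5 genes, picked by p or after their values were seen, knockout replicate 2 was farther from wild type. Of all clock genes tested, only Cry1 (-0.37 against -0.19) and Bhlhe40 (-0.84 against 0.04) were farther in knockout replicate 1. The members were more divided, with Zbtb16, Map3k6 and Dusp1 farther in knockout replicate 1. How many of all genes were farther in knockout replicate 2 was not counted. The hour of collection is not in the labels, and a part of the clock in the members' values was not tested.

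**Figure D4:**
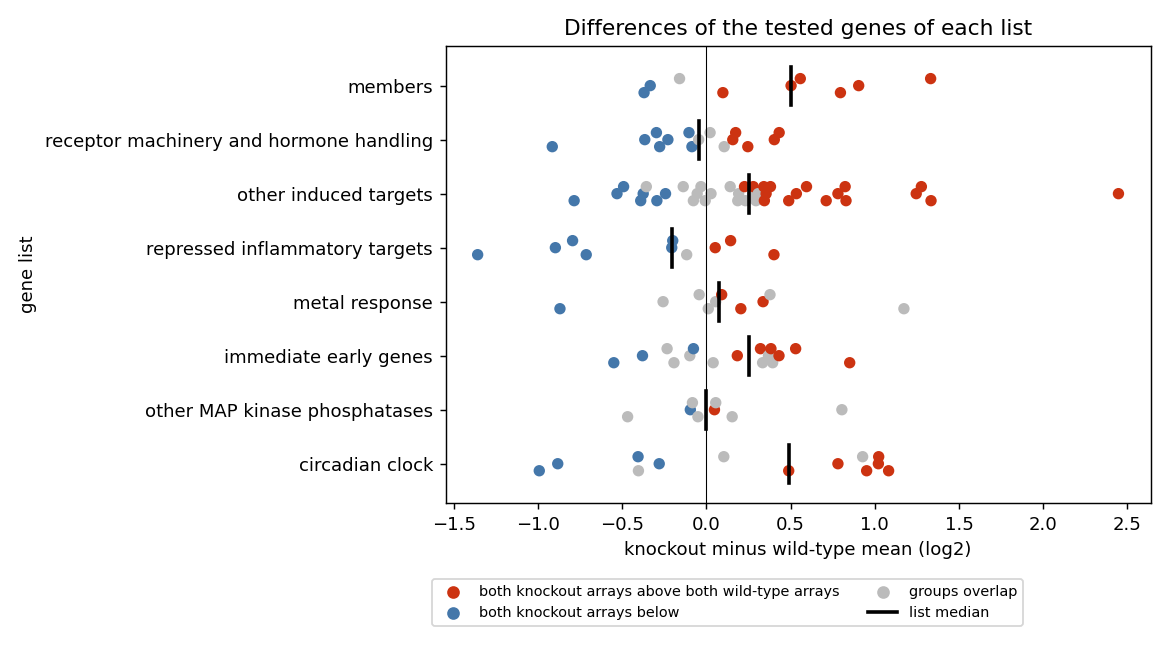
Differences between genotypes (knockout minus wild-type mean, log2, horizontal axis) of each tested gene in the 8 pathway lists (rows), in red where both knockout arrays lay above both wild-type arrays, in blue where both lay below, in grey where they overlapped, and with a black bar at each median. The medians are 0.50 for the members, 0.25 for other induced targets and -0.20 for repressed inflammatory targets, and each of these lists holds genes on both sides of 0.

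Marker lists of the other cell types of the gland are given beside the members. None of their genes passed (0 in every list), and the share of all genes without overlap was 26.3% higher and 32.5% lower. Brown and beige adipocyte markers were lower without overlap in 7 of 10 tested genes, with summed levels of 13.98 and 14.07 in wild type against 13.11 and 12.65 and with Cidea and Cox8b the brightest. Mast cell markers, led by Cma1 and Cpa3, were higher without overlap in 7 of 7, with 10.99 and 10.72 against 11.72 and 11.96. Luminal epithelial markers, with Krt8 and Epcam the brightest, were higher without overlap in 9 of 12, with 11.06 and 10.12 against 11.60 and 11.28, although a second Epcam probe set differed by -0.10. Basal markers were higher without overlap in 6 of 9, with 12.13 and 11.92 against 12.33 and 12.25. Their brightest genes, Acta2 and Myh11, overlapped between the genotypes. Erythroid markers, led by Hba-a1 and Bpgm, were lower without overlap in 4 of 4, at 13.68 and 13.67 against 13.19 and 13.37. This sum rests mostly on Hba-a1, and the median difference of the 4 genes was -1.40. T cell markers, led by Cd3e and Cd247, summed to 8.08 and 8.15 against 7.97 and 8.17, and blood endothelial markers, led by Cldn5 and Esam, to 13.13 and 13.11 against 12.95 and 13.07, with 6 of 12 genes lower and 2 higher without overlap. Fibroblast markers, led by Col3a1 and Dcn, were lower without overlap in 5 of 10 genes and higher in 1, and of 10 white adipocyte markers, led by Fabp4 and Adipoq, 4 were lower and 2 higher. The part of these cell types in the members' differences was not tested.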

How the data were processed

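Per the submitters' processing notes, the authors used RMA and the affy package, with no version given. The deposited values are log2 expression values, a scale read from their range. RMA brings the arrays' distributions close together (medians from 4.92 to 4.98), so a shift shared by most genes would be largely lost, and no detection calls were used. The number of arrays limits the precision.

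Probe sets were named from an annotation of the array design, with 28898 assigned to 1 gene, 551 to several and 15692 to none. Gene identifiers of 28689 matched RefSeq (GRCm38.p6). Each gene was represented by its brightest probe set, and genes with a mean of at least 4.94 (the median of all probe sets) entered a limma 3.58.1 fit in R 4.3.3 (lmFit and eBayes, no covariate, Benjamini-Hochberg at 0.05), which was tested on simulated data. P-values measure the spread between the arrays given as biological replicates.

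The members and the gene lists were chosen with earlier results of these data known. The naming rule took all members, Mmp14, up to 3 genes without overlap with the smallest p in each pathway list, and the 2 brightest tested markers of each cell type. Genes named outside it are said to be so. Alternatives were other brightness filters, probe set rules, scalings and variance models, the replicate number as a block, and each array left out.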

Additional observations from a re-analysis of the deposited data

How the results depend on the processing

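The count of genes called at an adjusted p under 0.05 was 0 with all 4 arrays, where an unadjusted limma p under 0.05 was reached by 1074 genes higher and 1337 lower, and it remained 0 in 14 of 16 other settings. Leaving out single arrays gave 0 to 4180 genes, with 4180 without knockout replicate 1, 1299 without knockout replicate 2 and 0 without either wild-type array. Of 139 member values under other settings 138 kept their direction. The exception was Mt1, at -0.0188 without probe sets whose names mark matches to several transcripts, and that setting leaves Mt1 only its dim probe set. With all probe sets of each gene averaged, Mt1 was at 0.44, Zbtb16 at 0.39 and Nr3c1 at 0.05. Under cyclic loess Dusp1 was at -0.08 and Nr3c1 at 0.18. With the replicate number as a block limma called 0 genes and 0 members, and 774 genes higher and 1062 lower had an unadjusted p under 0.05. The labels do not say that the numbers pair the mice, and deviations of arrays with the same number correlated at -0.09 across genes.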
